A study of Mus musculus with 12 samples.

Results

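*Dppa2*, *Dppa4*, *Dppa5a*, *Tcl1*, *Utf1*, *L1td1*, *Tdh*, *Lin28a* and *Lin28b* are genes associated with the ES cell state that are not core pluripotency transcription factors. Their levels were read in mouse ES cells and in XEN-like cells made from them, with and without functional *Sox7*. Every probe whose gene name on the array equals one of these symbols was taken, which gave 14 probes for the 9 genes, of 55681 probes with 34836 gene names on the array. All 14 probes passed the filter on dim probes, as did 25940 probes of the whole array.

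All cells were mouse ES cells, or their derivatives, that carried *Gata6GR*, a fusion of Gata6 and the ligand-binding domain of the glucocorticoid receptor, expressed from a piggyBac vector with the CAG promoter. Dexamethasone (Dex) moves this fusion into the nucleus, and the cells then differentiate into cells that resemble extraembryonic endoderm stem (XEN) cells. The 4 groups, with 3 arrays each, were *Sox7* (+/−) ES cells without Dex, *Sox7* (+/−) XEN-like cells after 4 days of Dex, *Sox7* (−/−) ES cells without Dex and *Sox7* (−/−) XEN-like cells after 4 days of Dex. The medium contained LIF in all of them. The controls were heterozygous and not wild type, and the *Sox7* (−/−) cells were derived from the heterozygous *Gata6GR* line, which goes back to 1 targeted clone, by selection with a high dose of puromycin. For the arrays the paper names a single line of each genotype, so genotype and cell line cannot be told apart in any comparison between genotypes. The labels do not say whether the 3 arrays of a group came from separate cultures, so the p-values measure only the spread between these arrays, which may be technical. For *Sox7* (+/−) ES cells the source label gives replicate number 1 on each array.

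RNA was hybridized to one-colour Agilent arrays. The level of a probe is given here as its background-subtracted signal in multiples of the 75th percentile of the array, which lay between 252.3 and 415.9 intensity units. The share of spots well above background ran from 41.7% to 52.3% by array, and none was saturated, and the number of arrays limits the precision. *Sox7*, the targeted gene, had levels between 2.18 and 6.88 on the 6 *Sox7* (+/−) arrays and was not well above background on any of the 6 *Sox7* (−/−) arrays. Of 16 ES cell markers, 12 fell and 1 rose after Dex in *Sox7* (+/−) cells, and 14 fell in *Sox7* (−/−) cells. Of 15 extraembryonic endoderm markers, 9 rose and 2 fell in *Sox7* (+/−) cells, and 13 rose in *Sox7* (−/−) cells. Of the 2 slides, the first carried *Sox7* (−/−) ES cells (3 arrays) and *Sox7* (−/−) XEN-like replicate 1, and the second the other 8 arrays, so ES cells of different genotype never shared a slide. The median log2 difference of all tested probes after Dex in *Sox7* (+/−) cells was 0.16, and it was -0.34 when arrays were scaled by spike-in controls. In XEN-like cells the median difference between genotypes was 0, and 0.25 with that scaling. The *Sox7* (+/−) XEN-like arrays varied most, with a median SD of 0.197 on the log2 scale, against 0.087 to 0.108 in the other groups.

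The genes act in different parts of the cell. *Dppa2* and *Dppa4* are neighbouring genes whose SAP-domain proteins bind each other and chromatin, and *Utf1* encodes another chromatin-associated factor of pluripotent cells. *Lin28a* and *Lin28b* encode RNA-binding proteins with a cold-shock domain that block the maturation of let-7 microRNAs. *L1td1* derives from a LINE-1 open reading frame, and *Dppa5a* encodes a KH-domain protein. Both proteins bind RNA. *Tcl1* encodes a coactivator of the kinase Akt, and *Tdh* encodes threonine dehydrogenase, the mitochondrial enzyme with which mouse ES cells turn threonine into glycine and acetyl-CoA.

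The mature let-7 sequences, from RefSeq (GRCm38.p6), are shown because the Lin28 proteins block the maturation of these microRNAs, and genes known as their targets are described below. Their seed, bases 2 to 8, is in capitals and is the same in both. No microRNA was measured here.
let-7a-5p: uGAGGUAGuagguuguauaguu
let-7g-5p: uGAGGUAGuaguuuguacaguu

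Promoter sequences from RefSeq (GRCm38.p6), 250 bases before to 50 bases after the start of the gene, were found for 5 of the 9 genes (*Tcl1*, *Utf1*, *L1td1*, *Lin28a* and *Lin28b*). *Lin28a* and *Lin28b* are printed because these paralogues had different Dex responses, and *Tcl1* and *Utf1* because they had the largest falls. Capitals mark matches, on either strand, to GATAA (the core bound by Gata factors), ACAAT (a core bound by Sox factors), the octamer ATGCAAAT or the GC box GGGCGG. Each sequence is written in the direction of transcription, *Lin28a* from chr4:134018767-134019066 (minus strand), *Lin28b* from chr10:45470152-45470451 (minus strand), *Tcl1* from chr12:105222688-105222987 (minus strand) and *Utf1* from chr7:139943606-139943905 (plus strand).
Lin28a: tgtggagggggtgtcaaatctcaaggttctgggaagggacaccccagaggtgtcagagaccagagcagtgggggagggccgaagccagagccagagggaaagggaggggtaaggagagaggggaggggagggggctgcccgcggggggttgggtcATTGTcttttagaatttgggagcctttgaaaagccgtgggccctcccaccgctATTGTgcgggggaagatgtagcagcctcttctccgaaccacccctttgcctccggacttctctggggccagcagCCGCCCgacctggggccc
Lin28b: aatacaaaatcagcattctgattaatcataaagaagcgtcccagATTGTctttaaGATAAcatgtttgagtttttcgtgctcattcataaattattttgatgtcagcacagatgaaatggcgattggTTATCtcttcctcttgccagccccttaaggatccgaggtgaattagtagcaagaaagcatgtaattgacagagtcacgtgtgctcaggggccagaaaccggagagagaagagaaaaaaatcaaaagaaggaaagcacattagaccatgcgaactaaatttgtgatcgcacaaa
Tcl1: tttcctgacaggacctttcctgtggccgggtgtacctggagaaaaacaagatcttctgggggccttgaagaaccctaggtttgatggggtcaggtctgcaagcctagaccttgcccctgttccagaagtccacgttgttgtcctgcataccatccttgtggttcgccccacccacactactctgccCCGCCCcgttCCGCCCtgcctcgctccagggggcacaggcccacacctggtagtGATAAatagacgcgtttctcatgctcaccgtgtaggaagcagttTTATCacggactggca
Utf1: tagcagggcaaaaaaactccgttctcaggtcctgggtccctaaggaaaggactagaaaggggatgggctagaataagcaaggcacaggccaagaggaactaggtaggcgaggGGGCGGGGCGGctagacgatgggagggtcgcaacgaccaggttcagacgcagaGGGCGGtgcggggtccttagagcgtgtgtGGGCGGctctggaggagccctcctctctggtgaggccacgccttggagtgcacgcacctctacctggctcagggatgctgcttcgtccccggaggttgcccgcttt
The *Lin28b* promoter had a GC content of 39%, against 63.3% for *Lin28a* and a median of 52.7% over all 32851 promoters of the table. GATAA was found in 25.4% of all these promoters, and matched at 2 places each in *Lin28b* and *Tcl1* and nowhere in the other 3. ACAAT, found in 31% of all promoters, matched at 2 places in *Lin28a* and 1 in *Lin28b*. GGGCGG, found in 35.7% of all promoters, matched at 4 places in *Utf1* (of which 1 pair overlaps), 2 in *Tcl1* and 1 in *Lin28a*. The octamer, found in 1.74% of all promoters, matched in none of the 5, and the *L1td1* promoter held none of the 4 motifs. These matches are descriptions of sequence and do not show binding.

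The Dex response was compared within each genotype, between ES cells and XEN-like cells. *Dppa2*, *Dppa4*, *Utf1*, *Tcl1*, *Tdh* and *Lin28b* fell in both genotypes, and *L1td1* fell in *Sox7* (−/−) cells. No gene of the set rose by more than 2-fold. *Lin28a* and *Dppa5a* differed by less than 2-fold in both genotypes. A change was called at an adjusted p under 0.05 (limma, Benjamini-Hochberg over all tested probes) and more than 2-fold. By this rule 6 of the 9 genes fell in *Sox7* (+/−) cells, where 14% of all tested probes fell, 11% rose and 24.9% changed in either direction. In *Sox7* (−/−) cells 7 of the 9 fell, where 14.2% of all probes fell, 14.6% rose and 28.8% changed in either direction. The median log2 difference of the 9 genes was -2.87 in *Sox7* (+/−) cells and -2.66 in *Sox7* (−/−) cells, against 0.16 and 0.07 over all tested probes. The arrays of ES and XEN-like cells did not overlap for 8 of the 9 genes in each genotype, and did not overlap for 67.6% and 73.6% of all tested probes. In bulk RNA, fewer cells that express a gene and less RNA per cell cannot be told apart.

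**Figure D1:**
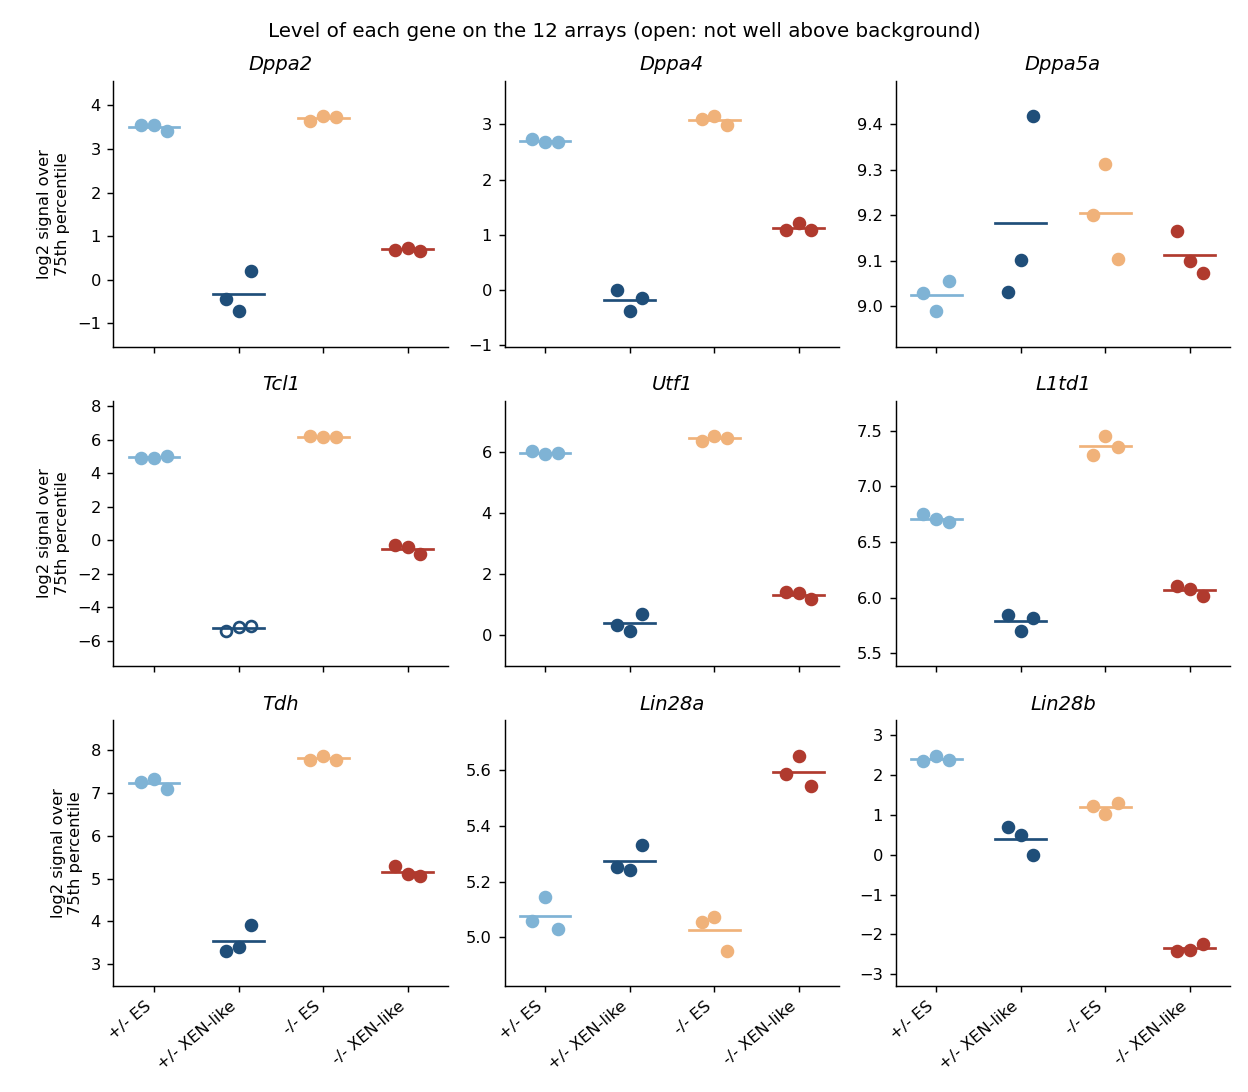
Level of each gene on the 12 arrays, as the log2 of the background-subtracted signal over the 75th percentile of the array, with 1 point per array and a line at the mean of the 3 arrays of a group. Open points are not well above background, and each panel has its own scale. *Tcl1* falls below background in *Sox7* (+/−) XEN-like cells, and *Dppa5a* stays between 8.99 and 9.42 in all groups.

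*Dppa2* (brightest probe at chr16:48319381-48319440, mm9) had levels of 11.7, 11.7 and 10.7 in *Sox7* (+/−) ES cells, 0.738, 0.603 and 1.15 in *Sox7* (+/−) XEN-like cells, 12.5, 13.5 and 13.3 in *Sox7* (−/−) ES cells and 1.6, 1.66 and 1.58 in *Sox7* (−/−) XEN-like cells. All ES arrays were far above all XEN-like arrays. On the log2 scale *Dppa2* fell by 3.83 ± 0.18 (SE) in *Sox7* (+/−) cells (14.2-fold, adjusted p = 4.2e-08) and fell by 3.01 ± 0.18 in *Sox7* (−/−) cells (8.08-fold, adjusted p = 2.0e-07). Its second probe, which spans a splice junction or other gap in the genome (60 bases placed over 1209), fell in both genotypes as well, by 13.3-fold and 7.34-fold.

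*Dppa4* (brightest probe at chr16:48293216-48293867, mm9) had levels of 6.63, 6.38 and 6.39 in *Sox7* (+/−) ES cells, 1.01, 0.763 and 0.909 in *Sox7* (+/−) XEN-like cells, 8.55, 8.87 and 7.94 in *Sox7* (−/−) ES cells and 2.12, 2.32 and 2.12 in *Sox7* (−/−) XEN-like cells. The ES arrays of each genotype were above all XEN-like arrays, as for its neighbour *Dppa2*. *Dppa4* fell 7.29-fold in *Sox7* (+/−) cells (log2 difference -2.87 ± 0.10, adjusted p = 4.1e-09) and 3.86-fold in *Sox7* (−/−) cells (log2 difference -1.95 ± 0.10, adjusted p = 4.8e-08). A second probe gave 6.86-fold and 3.81-fold falls. The third probe was dim, with levels of 0.374 to 0.46 in ES cells, and was not well above background on any *Sox7* (+/−) XEN-like array, so its fall there was at least 4.28-fold.

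*Utf1* (probe at chr7:147130950-147131009, mm9) had levels of 65.6, 61.9 and 62.8 in *Sox7* (+/−) ES cells, 1.26, 1.1 and 1.63 in *Sox7* (+/−) XEN-like cells, 83.2, 93 and 89.2 in *Sox7* (−/−) ES cells and 2.69, 2.63 and 2.29 in *Sox7* (−/−) XEN-like cells. Every XEN-like array lay at a small percentage of the ES level of its genotype. The fall was 48.3-fold in *Sox7* (+/−) cells (log2 difference -5.59 ± 0.13, adjusted p = 3.5e-10) and 35-fold in *Sox7* (−/−) cells (log2 difference -5.13 ± 0.13, adjusted p = 3.5e-10).

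*Tcl1* (probe at chr12:106454973-106455032, mm9) had levels of 30.2, 30.8 and 33.4 in *Sox7* (+/−) ES cells, 0.0234, 0.0281 and 0.0291 in *Sox7* (+/−) XEN-like cells, 75.8, 71.4 and 71.1 in *Sox7* (−/−) ES cells and 0.834, 0.774 and 0.567 in *Sox7* (−/−) XEN-like cells. None of the 3 *Sox7* (+/−) XEN-like values was well above background, while all 3 *Sox7* (−/−) XEN-like values were. The fall was at least 335-fold in *Sox7* (+/−) cells (adjusted p = 2.4e-11). This bound, like all others given here, sets each dim array at the lowest signal well above background on it or at the probe's own signal, whichever is higher. It holds for the reported processing only, since the fitted fall was 118-fold with normexp background correction, 155-fold with the deposited table scaled to the 75th percentile and 204-fold with that table not scaled. The fall was 102-fold in *Sox7* (−/−) cells (log2 difference -6.67 ± 0.14, adjusted p = 1.0e-10).

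*Tdh* (brightest probe at chr14:64111327-64111386, mm9) had levels of 154, 162 and 137 in *Sox7* (+/−) ES cells, 9.91, 10.5 and 15 in *Sox7* (+/−) XEN-like cells, 219, 236 and 220 in *Sox7* (−/−) ES cells and 39.1, 34.7 and 33.5 in *Sox7* (−/−) XEN-like cells. The 4 groups did not overlap. *Tdh* fell 13-fold in *Sox7* (+/−) cells (log2 difference -3.70 ± 0.14, adjusted p = 9.9e-09) and 6.31-fold in *Sox7* (−/−) cells (log2 difference -2.66 ± 0.14, adjusted p = 8.4e-08). The second probe fell 14.7-fold and 6.7-fold. The 2 probes are not independent readings of the gene, because they share the 21 bases at chr14:64111366-64111386 (mm9, minus strand), printed here as the stretch that both readings rest on.
Tdh shared stretch: cacaaaggccagagaaatgaa

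Of the RNA-binding proteins, *Lin28b* fell and its paralogue *Lin28a* did not. *Lin28b* (brightest probe at chr10:45096468-45096527, mm9) had levels of 5.16, 5.63 and 5.18 in *Sox7* (+/−) ES cells, 1.63, 1.41 and 1 in *Sox7* (+/−) XEN-like cells, 2.36, 2.04 and 2.46 in *Sox7* (−/−) ES cells and 0.188, 0.191 and 0.21 in *Sox7* (−/−) XEN-like cells. The *Sox7* (−/−) XEN-like arrays were well above background but the lowest of the 4 groups. The fall was 4.02-fold in *Sox7* (+/−) cells (log2 difference -2.01 ± 0.16, adjusted p = 1.6e-06) and 11.7-fold in *Sox7* (−/−) cells (log2 difference -3.54 ± 0.16, adjusted p = 1.7e-08). These sizes depend on the processing. In the same order, the falls were 3.51-fold and 6.06-fold with normexp background correction. They were 3.58-fold and 6.82-fold with the deposited table scaled to the 75th percentile, and 4.72-fold and 6.96-fold with it not scaled. The second probe was well above background only on the *Sox7* (+/−) ES arrays, with levels of 0.233, 0.202 and 0.159, and its fall in that genotype was at least 1.98-fold. In *Sox7* (−/−) cells both of its groups were below background and it gives no fold change.

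*Lin28a* (probe at chr4:133559245-133559304, mm9) had levels of 33.3, 35.4 and 32.6 in *Sox7* (+/−) ES cells, 38.1, 37.9 and 40.3 in *Sox7* (+/−) XEN-like cells, 33.3, 33.7 and 30.9 in *Sox7* (−/−) ES cells and 48.1, 50.3 and 46.7 in *Sox7* (−/−) XEN-like cells. The XEN-like arrays lay above the ES arrays in both genotypes, by less than 2-fold. The log2 difference was 0.20 in *Sox7* (+/−) cells (95% interval 0.05 to 0.35, adjusted p = 0.023), where the direction turned to -0.29 with spike-in scaling. It was 0.57 in *Sox7* (−/−) cells (95% interval 0.42 to 0.71, adjusted p = 2.7e-05).

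*L1td1* (probe at chr4:98405084-98405143, mm9) had levels of 108, 104 and 102 in *Sox7* (+/−) ES cells, 57.6, 52 and 56.4 in *Sox7* (+/−) XEN-like cells, 155, 175 and 163 in *Sox7* (−/−) ES cells and 68.8, 67.7 and 64.8 in *Sox7* (−/−) XEN-like cells. The groups did not overlap, and the XEN-like level stayed within a few-fold of the ES level. In *Sox7* (−/−) cells it fell 2.45-fold (log2 difference -1.29 ± 0.07, adjusted p = 7.4e-08). In *Sox7* (+/−) cells the log2 difference of -0.92 ± 0.07 (adjusted p = 1.2e-06) was short of 2-fold. It passed under quantile normalization (-1.11), normexp background correction (-1.0), scaling by the median of probes above background (-1.03), spike-in scaling (-1.41) and the deposited table not scaled (-1.38).

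*Dppa5a* (probe at chr9:78214866-78214925, mm9) had levels of 522, 508 and 532 in *Sox7* (+/−) ES cells, 523, 550 and 684 in *Sox7* (+/−) XEN-like cells, 588, 636 and 551 in *Sox7* (−/−) ES cells and 574, 549 and 539 in *Sox7* (−/−) XEN-like cells. The ES and XEN-like arrays overlapped in both genotypes. The log2 difference after Dex was 0.16 in *Sox7* (+/−) cells (95% interval -0.06 to 0.38) and -0.09 in *Sox7* (−/−) cells (95% interval -0.32 to 0.13), with adjusted p = 0.19 and 0.43. Its sign turned under spike-in scaling in the former (-0.33) and under quantile normalization in the latter (0.13). Of the 159 probes with a mean signal at least as high as this one, itself included, 0% were called in either Dex response. The part of this brightness in the result was not tested. Whether the probe also reads near-identical copies of the gene was not examined here.

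**Figure D2:**
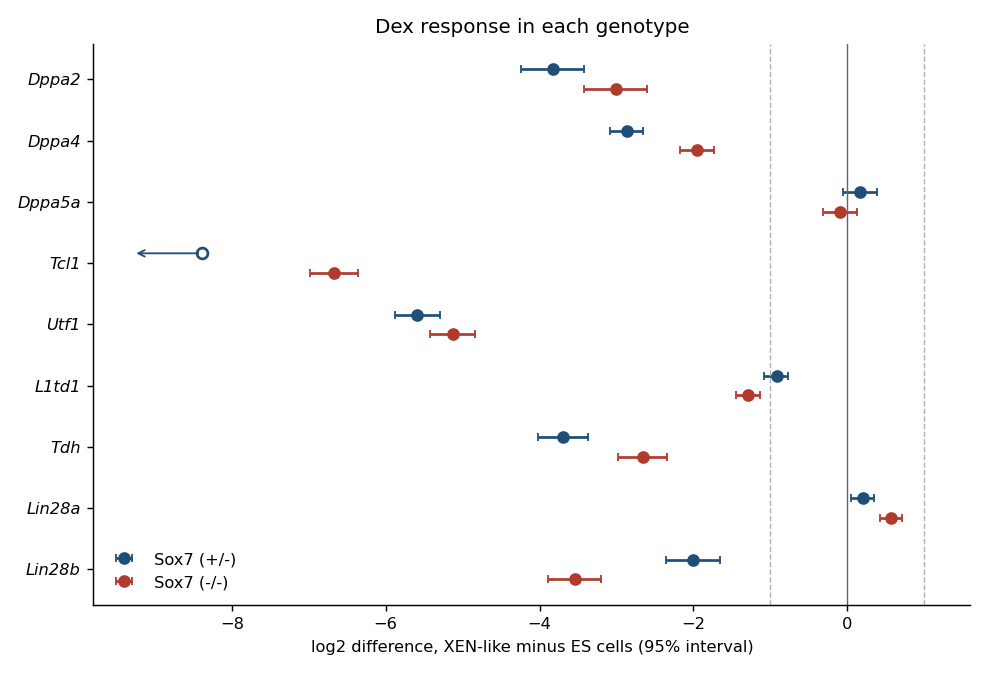
Log2 difference of XEN-like minus ES cells for each gene, in *Sox7* (+/−) (blue) and *Sox7* (−/−) cells (red), with 95% intervals from limma. Dashed lines mark a 2-fold change, and the open point with an arrow is the bound for *Tcl1*, which fell by at least 8.39 on the log2 scale. *Dppa5a* and *Lin28a* lie within the dashed lines in both genotypes.

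The ES cells of both genotypes were compared next. *Tcl1* was 2.31-fold higher and *Lin28b* 2.33-fold lower in *Sox7* (−/−) ES cells than in *Sox7* (+/−) ES cells, and the other 7 genes differed by less than 2-fold. Thus 1 of the 9 genes was called higher, where 1.95% of all tested probes were, and 1 was called lower, where 6.67% of all were and 8.62% were called in either direction. The median difference of the 9 genes was 0.39 on the log2 scale, against 0.1 over all tested probes. The 2 groups did not overlap for 8 of the 9 genes, *Lin28a* being the exception, and did not overlap for 65.2% of all tested probes. The log2 difference of *Tcl1* was 1.21 ± 0.14 (adjusted p = 1.0e-04) and that of *Lin28b* was -1.22 ± 0.16 (adjusted p = 2.0e-04). The second *Lin28b* probe was at least 2.15-fold lower. Every ES array of 1 genotype lay on another slide than those of the other, so slide and genotype can be separated only through the *Sox7* (−/−) XEN-like arrays. Of these, replicate 1 lay on slide 1 and replicates 2 and 3 on slide 2. A slide term thus rests on 1 array against 2, and cannot firmly separate slide from genotype. With the slide as a block, the *Tcl1* difference was 0.88 (adjusted p = 0.038) and no longer passed 2-fold, while *Lin28b* remained called at -1.13 (adjusted p = 0.038).

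Of the genes below 2-fold, *L1td1* had a log2 difference of 0.65 ± 0.07 (adjusted p = 6.5e-05), *Tdh* 0.58 ± 0.14 (adjusted p = 0.0088), *Utf1* 0.48 ± 0.13 (adjusted p = 0.013) and *Dppa4* 0.39 ± 0.10 (adjusted p = 0.01). All 4 were on the side of a higher level in *Sox7* (−/−) ES cells. *Dppa2* (0.20, 95% interval -0.21 to 0.61), *Dppa5a* (0.18, 95% interval -0.04 to 0.41) and *Lin28a* (-0.05, 95% interval -0.20 to 0.10) had intervals that include 0. The summed level of the 16 ES cell markers moved with genotype in these cells, from 379 to 389 on the *Sox7* (+/−) arrays to 746 to 778 on the *Sox7* (−/−) arrays, and all 16 were well above background in both. Of these markers 4 were called higher and 0 lower in *Sox7* (−/−) ES cells. Other marker lists moved too. The 15 extraembryonic endoderm markers, all well above background without Dex, summed to 1660 to 1720 on *Sox7* (+/−) ES arrays. On *Sox7* (−/−) ES arrays they summed to 1320 to 1410, with 0 called higher and 1 lower. Two-cell-like markers summed to 72.5 to 74.4 and 47.7 to 51.2, with 1 of 6 called higher and 4 lower in *Sox7* (−/−) ES cells. Trophectoderm markers summed to 12.8 to 12.9 and 6.7 to 6.85, with 0 of 8 tested called higher and 5 lower. Primed epiblast markers summed to 126 to 132 and 109 to 114, with 1 of 8 called higher and 2 lower. The part of these markers in the differences of the 9 genes was not tested.

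XEN-like cells of the 2 genotypes differed at more of the genes. *Tcl1*, *Tdh*, *Dppa4* and *Dppa2* were higher and *Lin28b* was lower in *Sox7* (−/−) XEN-like cells. So 4 of the 9 genes were called higher, where 3.86% of all tested probes were, and 1 was called lower, where 3.65% of all were and 7.5% were called in either direction. The median log2 difference of the 9 genes was 0.94, against 0 over all tested probes. The groups did not overlap for 8 of the 9 genes, with *Dppa5a* the exception, and did not overlap for 46.2% of all tested probes.

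*Tcl1* was at least 7.62-fold higher in *Sox7* (−/−) XEN-like cells (adjusted p = 2.9e-08), since it was below background in *Sox7* (+/−) XEN-like cells. This value depends on the background correction, as the fitted difference was 3.41-fold with normexp, 4.26-fold with the deposited table scaled to the 75th percentile and 5.5-fold with that table not scaled. *Tdh* was 3.07-fold higher (log2 difference 1.62 ± 0.14, adjusted p = 3.0e-05), and its second probe 3.25-fold. *Dppa4* was 2.46-fold higher (log2 difference 1.3 ± 0.10, adjusted p = 1.0e-05), and its second probe 2.47-fold. *Dppa2* was 2.02-fold higher (log2 difference 1.02 ± 0.18, adjusted p = 0.0024), close to the threshold. Its call was lost without *Sox7* (+/−) XEN-like replicate 1 (0.96) or 2 (0.81) or without *Sox7* (−/−) XEN-like replicate 2 (1.0). It was also lost with normexp background correction (0.83), quantile normalization (0.99), scaling by the median of probes above background (0.95), the deposited table scaled to the 75th percentile (0.87) and the mean of all probes of the gene (0.86), and its second probe, at 0.70 ± 0.24, did not pass. *Utf1*, at 0.94 ± 0.13 (adjusted p = 4.8e-04), was just short of 2-fold, and passed without *Sox7* (+/−) XEN-like replicate 3 (1.10) or *Sox7* (−/−) XEN-like replicate 3 (1.02). It also passed with spike-in scaling (1.19) and with the deposited table not scaled (1.28).

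*Lin28b* went the other way and was 6.76-fold lower in *Sox7* (−/−) XEN-like cells (log2 difference -2.76 ± 0.16, adjusted p = 1.7e-06). It was 3.84-fold lower with normexp, 4.26-fold with the deposited table scaled and 3.29-fold with it not scaled, and was called under each. *L1td1* and *Lin28a* had log2 differences of 0.28 ± 0.07 (adjusted p = 0.012) and 0.32 ± 0.07 (adjusted p = 0.0049), both short of 2-fold. *Dppa5a* gave -0.07 (95% interval -0.30 to 0.15), with the sign turned under quantile normalization (0.06) and spike-in scaling (0.17). Among the arrays of slide 2 alone, a subset chosen after seeing the data and with 2 *Sox7* (−/−) arrays, 5 of the genes were called. The share of all tested probes called in this subset was not computed.

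**Figure D3:**
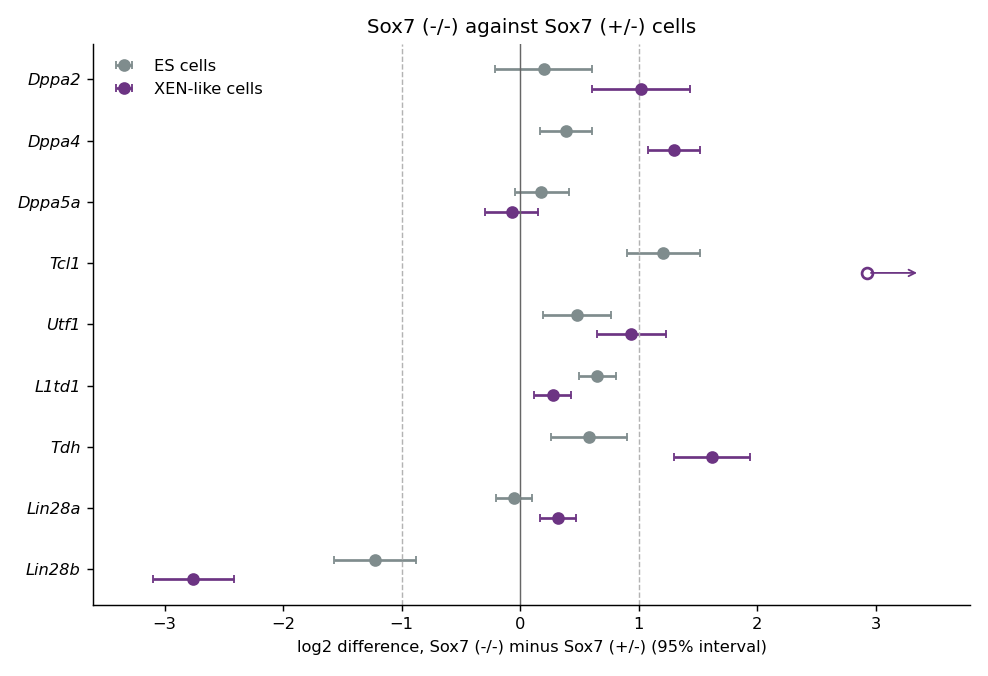
Log2 difference of *Sox7* (−/−) minus *Sox7* (+/−) cells for each gene, in ES cells (grey) and XEN-like cells (purple), with 95% intervals from limma. Dashed lines mark a 2-fold difference, and the open point with an arrow is the bound for *Tcl1*, at least 2.93 on the log2 scale. *Lin28b* is lower in *Sox7* (−/−) cells of both kinds, and *Tdh*, *Dppa4* and *Dppa2* pass the line in XEN-like cells.

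Markers of the starting cells and of other cell types were read in the same XEN-like cells. *Nanog*, *Sox2*, *Fgf4* and *Prdm14*, 4 of the 16 ES cell markers, were not well above background on any of the 6 XEN-like arrays. The other 12 of the 16 ES cell markers were above background on all XEN-like arrays. The summed level of all 16 was 87.4 to 93.4 in *Sox7* (+/−) and 126 to 137 in *Sox7* (−/−) XEN-like cells. *Klf4* (mean log2 level 5.61 and 5.97), *Tbx3* (4.32 and 4.77) and *Sall4* (3.64 and 4.57) weigh most in these sums. *Klf4* rose after Dex in *Sox7* (+/−) cells and *Sall4* was not called in either genotype. The sums therefore do not measure how many ES cells remained. Of the 16, 3 were called higher and 1 lower in *Sox7* (−/−) XEN-like cells. The log2 differences were 4.63 for *Esrrb*, 1.21 for *Tfcp2l1*, 1.11 for *Zfp42* and -1.4 for *Klf2*. All 15 extraembryonic endoderm markers were well above background in all groups, with sums of 3620 to 3980 in *Sox7* (+/−) and 3340 to 3500 in *Sox7* (−/−) XEN-like cells. Of these 15, 4 were called higher (*Amn*, *Cubn*, *Hnf4a* and *Dab2*) and 0 lower in *Sox7* (−/−) XEN-like cells, with log2 differences from 1.07 for *Dab2* to 3.19 for *Amn*. The summed level of 10 trophectoderm markers was 2.79 to 3.67 in *Sox7* (+/−) and 8.54 to 9.62 in *Sox7* (−/−) XEN-like cells. Of 8 tested, 6 were called higher and 0 lower in *Sox7* (−/−) XEN-like cells. *Hand1*, among these 6, was below background in both genotypes, as was *Elf5*, which is not among them. *Cdx2*, also among the 6, was below background in *Sox7* (+/−) XEN-like cells, and its difference was bounded only at 1.13-fold or more. Primed epiblast markers summed to 51.8 to 66.5 and 40.6 to 43.6, and 6 two-cell-like markers to 26.4 to 31.2 and 29.7 to 31.3. Of 8 primed epiblast markers 1 was called higher and 1 lower, and of the 6 two-cell-like markers 1 higher and 0 lower. That two-cell-like marker, *Zscan4c*, was below background in *Sox7* (+/−) XEN-like cells, with a bound of only 1.26-fold. Mesoderm and primitive streak markers summed to 14.1 to 18 and 13.2 to 14.5, with *T* and *Mixl1* below background in both. Of 6 tested, 2 were called higher (*Eomes* and *Hand1*, which are in the trophectoderm list too) and 1 lower (*Tbx6*). Fibroblast markers summed to 0.929 to 1.38 and 1.06 to 1.19, with *Col1a1* and *Thy1* below background in both, and 0 of 5 tested were called. The part of the ES cell, endoderm and trophectoderm markers in the differences was not tested.

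The difference between genotypes in the Dex response was tested directly. This comparison uses the same 12 arrays as those above and is not independent of them. *Tcl1* and *Tdh* fell less in *Sox7* (−/−) cells and *Lin28b* fell more, so 2 of the 9 genes were called with a higher and 1 with a lower response in *Sox7* (−/−) cells. Of all tested probes 6.62% were called higher, 3.17% lower and 9.79% in either direction. The median over the 9 genes was 0.47 on the log2 scale, against -0.09 over all tested probes. The difference was 1.04 ± 0.20 for *Tdh* (adjusted p = 0.0047) and 1.13 ± 0.16 for its second probe (adjusted p = 5.9e-04). The *Tdh* call was lost without *Sox7* (+/−) ES replicate 2 (0.99), *Sox7* (+/−) XEN-like replicate 1 (0.92) or 2 (0.97) or *Sox7* (−/−) XEN-like replicate 1 (0.97). *Tdh* lies 458 kb from the *Sox7* probe on chromosome 14 (mm9).

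For *Tcl1* the fitted difference was 3.53 ± 0.20 (adjusted p = 1.4e-06), but it rests on values below background in *Sox7* (+/−) XEN-like cells. Set against the bound of that fall, the fall was at least 3.29-fold smaller in *Sox7* (−/−) cells. With normexp background correction the difference was 0.61 (adjusted p = 0.007) and with the deposited table scaled to the 75th percentile 0.92 (adjusted p = 9.0e-04), both short of 2-fold. For *Lin28b* the difference was -1.53 ± 0.22 (adjusted p = 7.5e-04), and under the same alternatives it was -0.79 (adjusted p = 0.0071) and -0.92 (adjusted p = 0.0041). With the deposited table not scaled between arrays it was -0.56 (adjusted p = 0.14). The cause of these shifts was not tested. The second *Lin28b* probe, at -0.58 ± 0.31, was below background in 3 of the 4 groups.

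*Dppa4* had a difference of 0.92 ± 0.14 (adjusted p = 0.0011) and *Dppa2* of 0.81 ± 0.26 (adjusted p = 0.042), both short of 2-fold. Both passed with spike-in scaling (1.32 and 1.21) and with the deposited table not scaled (1.16 and 1.07). Without *Sox7* (+/−) XEN-like replicate 3, *Dppa2* passed at 1.07, and without replicate 1 *Dppa4* passed at 1.01. *L1td1* (-0.37, adjusted p = 0.019), *Lin28a* (0.37, adjusted p = 0.016), *Utf1* (0.47, adjusted p = 0.087) and *Dppa5a* (-0.25, adjusted p = 0.22) did not pass.

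**Figure D4:**
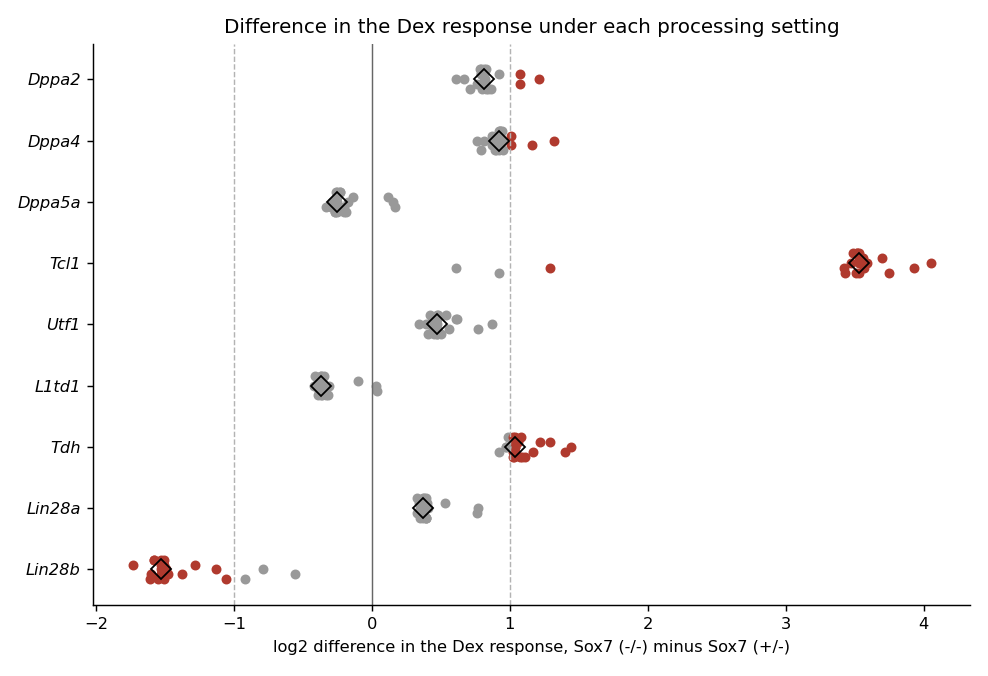
Difference between genotypes in the Dex response (log2, *Sox7* (−/−) minus *Sox7* (+/−)) for each gene under each processing setting, with 1 point per setting, red where it was called and grey where it was not, and a diamond at the reported value. Dashed lines mark 2-fold. *Tcl1* ranges from 0.61 to 4.05 and *Lin28b* from -1.73 to -0.56, while *Tdh* lies between 0.92 and 1.44.

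Genes whose pattern over the 12 arrays was most like that of each gene were found by the root mean square difference of centred log2 levels, among 14003 symbols known to RefSeq. *Utf1* was most like *Etv5* (0.12 on the log2 scale), an Ets-family transcription factor, and *Tdh* most like *Zfp850* (0.11). *Evpl*, which encodes envoplakin, was the nearest to *Dppa2* (0.20) and the second nearest to *Tdh* (0.18). *Dppa4* was most like *Sycp3* (0.16), which encodes a protein of the synaptonemal complex. *Tcl1* was most like *Esrrb* (0.66), an orphan nuclear receptor of ES cells. *L1td1* was most like *E2f1* (0.05), which encodes a cell cycle transcription factor, *Lin28a* most like *Tspan14* (0.06) and *Dppa5a* most like *Ppia* (0.03), a cyclophilin. *Lin28b* was most like *Insm1* (0.57). The SD over the 12 arrays was 4.76 for *Tcl1* and 1.84 for *Lin28b*, but 0.24 for *Lin28a* and 0.13 for *Dppa5a*. A gene that varies little can have a small difference from many others, so these values do not rank closeness between genes. Pearson's r was 0.998 for *Tcl1* with *Esrrb* and 0.959 for *Dppa5a* with *Ppia*. All of these are descriptions over the same 12 arrays in 4 groups, so they share libraries and scaling.

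Other genes of the same families were read from a list of 16 symbols, of which 15 were on the array and 6 tested. *Dppa3*, *Khdc3* and *Ooep* fell in both genotypes, with every XEN-like array below background. *Dppa3*, a maternal-effect gene also known as Stella, fell at least 8.36-fold in *Sox7* (+/−) and 2.71-fold in *Sox7* (−/−) cells. *Khdc3*, a KH-domain relative of *Dppa5a* in the oocyte subcortical maternal complex, fell at least 63.2-fold and 88.3-fold, and *Ooep*, of the same complex, at least 1.76-fold and 2.5-fold. The cold-shock gene *Ybx1* and the *Tcl1* relative *Mtcp1* were not called in either genotype.

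The genes that process let-7 or act with the Lin28 proteins did not move past 2-fold. Of 10 such genes, among them *Dicer1*, *Drosha*, *Dgcr8*, the exportin *Xpo5* and the uridylyl transferases *Zcchc11* and *Zcchc6*, 0 were called in any of the 5 comparisons. Several had small differences with a low adjusted p, such as *Zcchc6* at 0.76 ± 0.07 after Dex in *Sox7* (+/−) cells (adjusted p = 3.4e-06) and *Trim71* at -0.87 ± 0.08 (adjusted p = 8.4e-06). The median over the 10 genes was -0.07 after Dex in *Sox7* (+/−) cells and 0.03 in *Sox7* (−/−) cells, against 0.16 and 0.07 over all tested probes.

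Of 15 known let-7 targets, 1 rose and 3 fell after Dex in *Sox7* (+/−) cells, and 2 rose and 5 fell in *Sox7* (−/−) cells. Of all tested probes 11% rose and 14% fell in *Sox7* (+/−) cells, near the shares of the list, and 14.6% rose and 14.2% fell in *Sox7* (−/−) cells. *Ccnd1*, encoding cyclin D1, fell at least 34-fold and 50.6-fold to below background. *Hmga1* and *Hmga2*, encoding architectural chromatin proteins, fell by 1.73 ± 0.10 and 1.64 ± 0.13 on the log2 scale in *Sox7* (+/−) cells. *Ccnd2*, encoding cyclin D2, rose in both genotypes, with log2 differences of 1.75 ± 0.09 and 1.47 ± 0.09. *Myc* fell by 3.36 ± 0.09 in *Sox7* (−/−) cells, and the difference from the *Sox7* (+/−) response was -2.65 ± 0.13 (adjusted p = 6.0e-07). The median over the 15 genes was -0.38 in *Sox7* (+/−) and -0.32 in *Sox7* (−/−) cells, against 0.16 and 0.07 over all tested probes.

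A list of 20 genes covered threonine, glycine and one-carbon metabolism, and not all of them act on the products of *Tdh*. Of the 20, 0 rose and 2 fell after Dex in *Sox7* (+/−) cells, and 0 rose and 7 fell in *Sox7* (−/−) cells. Of all tested probes 14% and 14.2% fell in these comparisons. *Gcat*, the enzyme that acts directly after threonine dehydrogenase, fell in both, by 1.08 ± 0.10 and 1.02 ± 0.10 on the log2 scale. *Amt*, of the glycine cleavage system, fell by 1.99 ± 0.10 in *Sox7* (+/−) cells. In *Sox7* (−/−) cells *Shmt2* and *Mthfd2*, mitochondrial enzymes of the folate cycle, had the largest falls (log2 differences -1.85 ± 0.12 and -1.85 ± 0.22). The difference in response was called for *Shmt2* (-1.31 ± 0.17, adjusted p = 3.9e-04) and *Mthfd2* (-1.87 ± 0.32, adjusted p = 0.002), with the larger fall in *Sox7* (−/−) cells. It was called in the same direction for *Mat2a* (-1.23 ± 0.15, adjusted p = 3.2e-04) and *Psph* (-1.41 ± 0.26, adjusted p = 0.003). *Amt* was called in the direction of *Tdh*, with the smaller fall in *Sox7* (−/−) cells (1.43 ± 0.14, adjusted p = 7.1e-05). The median over the 20 genes was -0.16 in *Sox7* (+/−) and -0.58 in *Sox7* (−/−) cells, against 0.16 and 0.07 over all tested probes.

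Of 15 genes of the pathway of Akt, the kinase to which the Tcl1 protein binds, 2 rose and 0 fell in *Sox7* (+/−) cells, and 3 rose and 0 fell in *Sox7* (−/−) cells. Of all tested probes 11% and 14.6% rose, so these counts were near the background. The log2 differences were 1.35 ± 0.06 and 2.08 ± 0.06 for *Akt1*, and 1.09 ± 0.08 and 1.4 ± 0.08 for *Gsk3b*, which encodes a kinase that Akt phosphorylates. *Pik3r1*, a regulatory subunit of phosphoinositide 3-kinase, rose in *Sox7* (−/−) cells (log2 difference 1.77 ± 0.15). The median over these genes was 0.40 in *Sox7* (+/−) and 0.46 in *Sox7* (−/−) cells, against 0.16 and 0.07 over all tested probes.

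**Figure D5:**
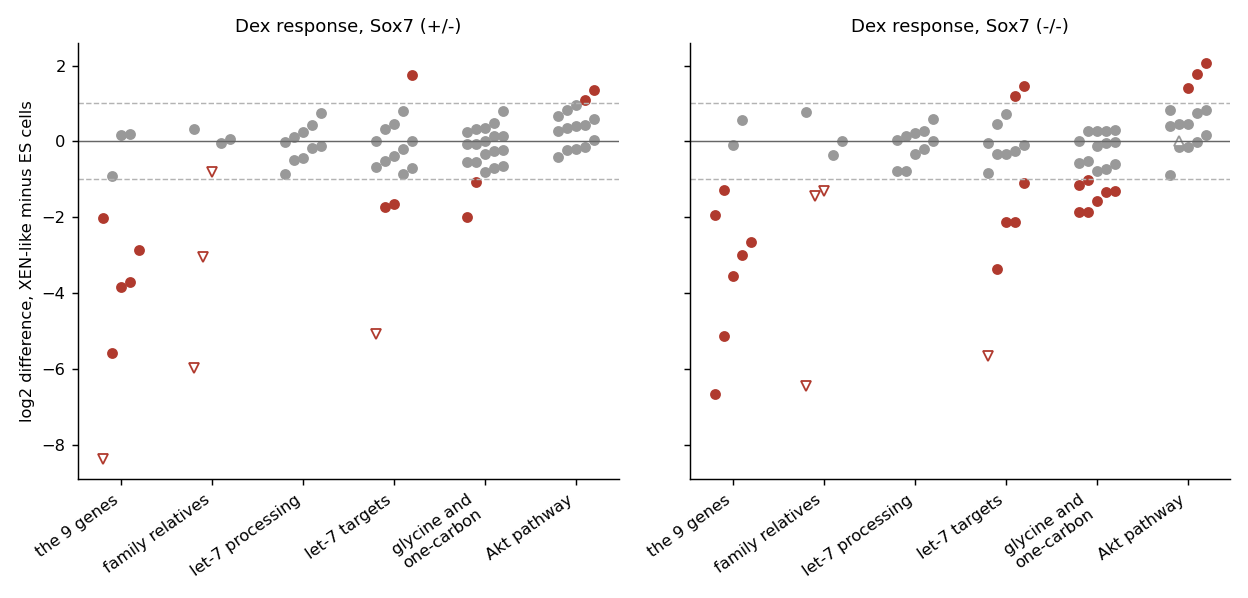
Log2 difference of XEN-like minus ES cells for each tested gene of 6 lists, in *Sox7* (+/−) (left) and *Sox7* (−/−) cells (right), with 1 symbol per gene, red where it was called. Open triangles are bounds for genes below background in all arrays of a group, and dashed lines mark 2-fold. All let-7 processing genes lie within the dashed lines, while most of the 9 genes lie below them.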

How the data were processed

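RNA of 4 groups of cells, 3 arrays each, was hybridized to SurePrint G3 mouse arrays. The authors deposited intensity values as Agilent Feature Extraction output (version 10.7.3.1 per the labels), background-subtracted within each array but not scaled between arrays, and 1 table of intensities, which lie within 0.498% of the mean spot signal. The further analysis software of the paper was not used. Here processed signals were divided by the 75th percentile of their array and put on the log2 scale. Outlier spots were left out and repeat spots of a probe averaged. A probe was tested if some group had it well above background on each of its 3 arrays. limma 3.58.1 (R 4.3.3) fitted the 4 group means over the 12 arrays, the prior having 1.987 degrees of freedom, and 5 comparisons were drawn from this fit. A call needed a Benjamini-Hochberg adjusted p under 0.05 over all tested probes and more than 2-fold. Genes with several probes were read by the brightest. Intervals are 95% intervals of the fit. The fit was tested on simulated data. The genes and lists were chosen with earlier results of these data known. All 9 genes are named. Of other lists, all called genes could be named where at most 5 were, otherwise the 2 largest rises and the 2 largest falls. *Gcat* in *Sox7* (−/−) cells, *Zcchc6* and *Trim71*, other uncalled list genes and the markers named for being below background were chosen after their values were seen. So were the markers named for their weight in a sum. Across probes, arrays of a group correlated with Pearson's r of 0.982 to 0.996. The alternatives tried are given in the closing section. No genome sequence was used, and probe positions (mm9) and promoter positions (GRCm38.p6) are on different builds. A gene of the family list is not reported here.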

Additional observations from a re-analysis of the deposited data

Results flagged for a closer look

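The Dex response differed between genotypes, by the test of the difference itself, for 3 of the genes. The log2 difference (*Sox7* (−/−) minus *Sox7* (+/−)) was -1.53 for *Lin28b*, 3.53 for *Tcl1* and 1.04 for *Tdh*, whose second probe gave 1.13. The *Tcl1* value rests on signals below background in *Sox7* (+/−) XEN-like cells. Groups of 3 arrays were not searched for single deviating arrays.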

How the results depend on the processing

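Most values kept their direction and call. All settings refit the same 12 arrays or a part of them, and a gene far from 2-fold seldom changes its call. The shares that follow are therefore not independent evidence of stability. For the Dex response, 223 of 233 values in *Sox7* (+/−) and 232 of 233 in *Sox7* (−/−) cells did so, as did 222 of 224 between ES cells, 215 of 233 between XEN-like cells and 194 of 215 for the difference in response. For the Dex response in *Sox7* (+/−) cells the count of genes called, 6 as reported, was 7 in 5 settings, where *L1td1* passed. These were normexp, quantile normalization, scaling by the median of probes above background, spike-in scaling and the table not scaled. With the filter on all 12 arrays the Dex response counts were 5 in *Sox7* (+/−) and 6 in *Sox7* (−/−) cells. The count of genes called for the difference in response, 3 as reported, was 1 with normexp background correction, 1 with the deposited table scaled to the 75th percentile and 5 with spike-in scaling. The count between ES cells, 2 as reported, was 1 with the filter on all 12 arrays, where *Tcl1* was not tested, and 1 with the slide as a block. Between XEN-like cells the count, 5 as reported, was 4 with normexp, quantile normalization, scaling by the median of probes above background, the table scaled, the filter on all 12 arrays and the mean of all probes, and 6 with spike-in scaling and the table not scaled. Leaving out 1 array at a time gave 6 to 6 and 7 to 7 genes for the Dex responses in *Sox7* (+/−) and *Sox7* (−/−) cells, 2 to 2 between ES cells, 4 to 6 between XEN-like cells and 2 to 4 for the difference in response. With the replicate number as a block the counts were 6, 7, 2, 5 and 3, although same-numbered arrays did not deviate together (correlations -0.051 to 0.126), so the numbers were not taken as pairs. Within slide 2, chosen after seeing the data, 6 genes were called for the Dex response in *Sox7* (+/−) cells and 5 between XEN-like cells. The share of all tested probes called within slide 2 was not computed. A fit within slide 1 assumes that its single *Sox7* (−/−) XEN-like array varies like the ES arrays, so it says little of stability. The values whose sign turned had not been called. For *Dppa5a* the Dex response in *Sox7* (+/−) cells turned to -0.33 with spike-in scaling and -0.32 with the table not scaled, and that in *Sox7* (−/−) cells to 0.13 with quantile normalization. With quantile normalization its difference turned to -0.06 between ES cells, 0.06 between XEN-like cells and 0.12 in response. Between XEN-like cells it was also 0.05 with normexp, 0.17 with spike-in scaling, 0.40 with the table not scaled, and 0.03 with the table scaled, and leaving out single arrays gave -0.15 to 0.05, the latter without *Sox7* (+/−) XEN-like replicate 3. Its difference in response was 0.15 with spike-in scaling and 0.17 with the table not scaled. The *Lin28a* Dex response in *Sox7* (+/−) cells turned to -0.01 (quantile), -0.29 (spike-in) and -0.20 (table not scaled), and the *L1td1* difference in response to 0.03 and 0.04 under the last 2. The cause was not tested. Signal over background limits *Tcl1* and the dim probes of *Dppa4* and *Lin28b* to bounds.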
